A study of Danio rerio with 6 samples.

Results

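Pannexin 1 channels let ATP out of cells, and the fate of that ATP is set by enzymes. Ectonucleotidases on the outer face of the membrane strip phosphates from ATP and ADP to give AMP, and ecto-5′-nucleotidase turns AMP into adenosine. Inside the cell, adenosine is deaminated to inosine or phosphorylated back to AMP, and adenylate kinases and AMP deaminases keep AMP, ADP and ATP in balance. The genes described here are these nucleotide hydrolysis and adenosine metabolism enzymes, 37 of the 15336 genes listed in each count file. They were taken by symbol alone, as the entpd, enpp, nt5, ampd and adenylate kinase families, the adenosine deaminase ada and the related adal, and the adenosine kinases adka and adkb. By role, they comprise 12 enzymes that face the extracellular space or are secreted and 25 that act inside the cell.

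Expression was compared between *panx1a*-/- larvae and wild-type larvae of the same Tupfel long fin (TL) strain at 6 dpf, without any treatment. Each genotype was represented by 3 libraries of total RNA from whole larvae. The knockout line was made with TALENs (designed nucleases) directed at *panx1a*, descends from a single founder fish, and carries a small deletion that shifts the reading frame and cuts the protein short. Nothing in the labels or methods says how many larvae made up a library or whether libraries of a genotype came from separate clutches, so p-values measure the spread between these libraries. In whole larvae, fewer cells of a type and less RNA per cell cannot be told apart.

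Between 13054759 and 17776115 reads were counted on genes in *panx1a*-/- libraries, against 17349457 to 21472044 in TL libraries. *panx1a*, the gene that was targeted, had 22, 17 and 13 counts in *panx1a*-/- libraries and 110, 114 and 147 in TL libraries, a log2 fold change of −2.72. Of the 12797 genes tested with edgeR's quasi-likelihood test, 1264 were upregulated and 1506 downregulated at an adjusted p-value below 0.05. With upper-quartile factors this split was 874 and 1925, and scaling by library size alone gave 1026 and 607, and these scalings shifted the median log2 fold change of all genes by −0.11 and by 0.23. Between 48.4% and 59.4% of uniquely aligned reads were matched to no gene feature in *panx1a*-/- libraries, against 30.2% to 42.9% in TL libraries. The p-value was 0.1 by a two-sided exact permutation test, which with 3 libraries against 3 cannot go lower. They are called reads outside genes below, but could include reads within introns, as the annotation and strand setting are not given. The share of these reads separated the genotypes. A fit that used it as a covariate, given with the enzyme counts, therefore cannot tell the share and the genotype apart. Among marker lists of tissues, all 6 tested photoreceptor markers, of 8 listed, were upregulated, against 9.88% of all genes. Downregulated were 5 of 6 epidermal and 5 of 7 exocrine pancreas markers, against 11.8% of all genes. These lists had the largest shares of calls. Of 8 enterocyte markers 0 were called and of 8 hepatocyte markers 1, although 7 and 8 of them had a log2 fold change below 0. Epidermal markers summed to 1406 to 3867 CPM in *panx1a*-/- libraries and 10296 to 28155 CPM in TL libraries, and the part of such tissue markers in the enzyme results was not tested.

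Of the 37 enzyme genes, 35 passed edgeR's filter on low counts. In *panx1a*-/- larvae 7 of them were downregulated, or 20% of those tested, against 11.8% of all genes, and 3 were upregulated, or 8.57%, against 9.88% of all genes. In either direction this came to 28.6%, against 21.6% of all genes. The downregulated genes included *entpd1* and *entpd3* outside the cell and *ada*, *ampd3b*, *ak1* and *nt5dc1* inside it. The upregulated genes were *entpd4*, *nt5c1aa* and *nt5c1ba*, all of them intracellular, as were 25 of the 35 genes tested. Downregulated genes made up 20% of the tested extracellular enzymes and 20% of the intracellular ones. Called in either direction were 20% of the extracellular and 32% of the intracellular enzymes. For 15 of the 35 genes the libraries of the genotypes did not overlap, or 42.9%, which is below the 47.5% of all genes tested. The median log2 fold change of the enzymes was −0.25, against −0.06 over all genes tested. It was −0.51 over the 10 tested extracellular enzymes and −0.08 over the 25 intracellular ones, a difference that was not tested.

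**Figure D1:**
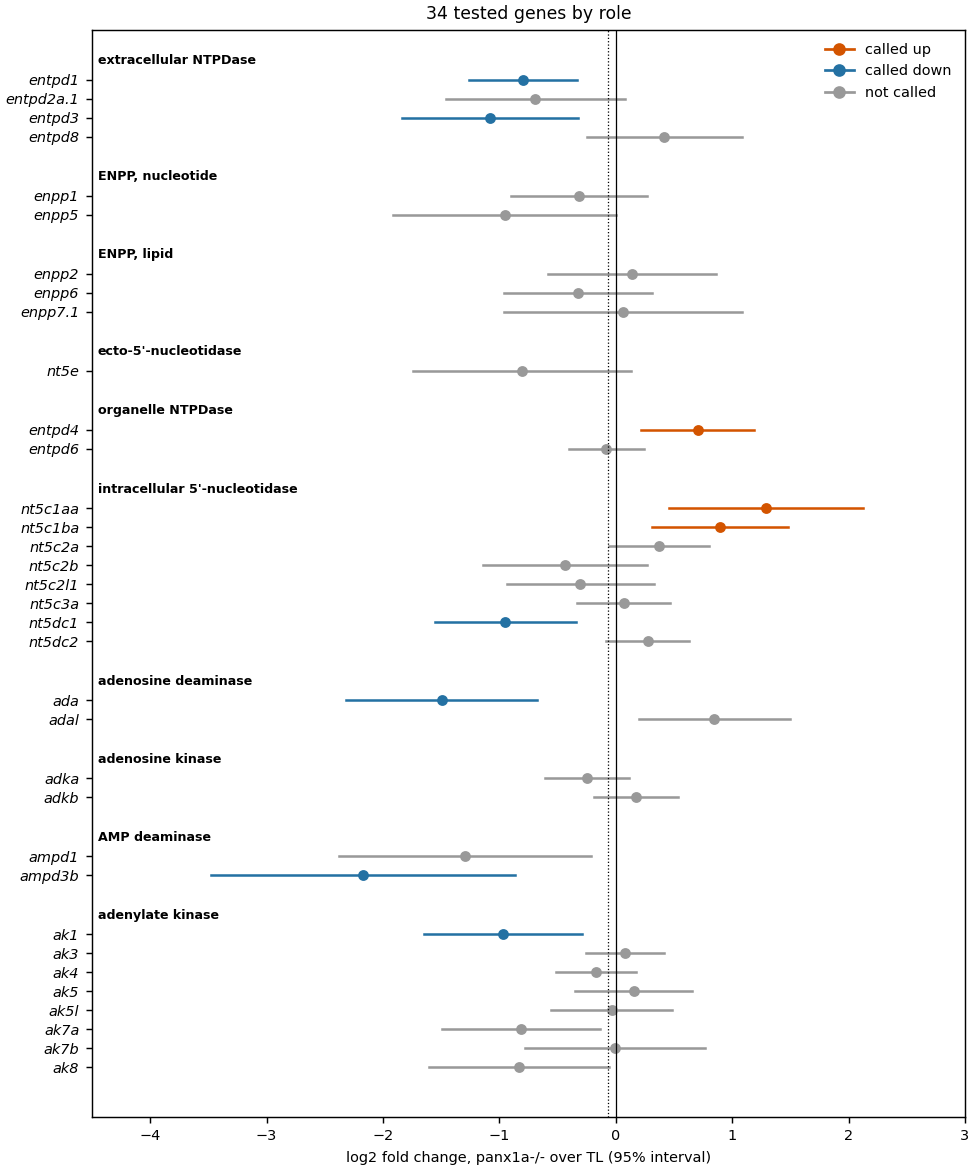
Log2 fold change of 34 tested enzyme genes (x axis, *panx1a*-/- over TL, with 95% intervals from edgeR's quasi-likelihood test) grouped by role; the dotted line is the median of all tested genes, −0.06. The 6 downregulated genes shown (blue) lie between −2.17 and −0.80 and the 3 upregulated genes (orange) between 0.71 and 1.29, and the remaining genes (grey) were not called.

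The calls depended on which libraries entered the test. None of the 35 genes was called by edgeR's quasi-likelihood test without *panx1a*-/- replicate 1, *panx1a*-/- replicate 3, TL replicate 2 or TL replicate 3. In these fits 13, 11, 11 and 13 of them had an unadjusted p-value below 0.05. Over all genes, the same fits called 19, 4, 142 and 3. An unadjusted p-value below 0.05 was reached there by 4115, 3797, 4277 and 3645 of all genes. Without *panx1a*-/- replicate 2, 2 enzyme genes were upregulated and 7 downregulated, and without TL replicate 1, 5 were upregulated and 7 downregulated. Those fits called 3658 and 4708 of all genes. The scaling also mattered, with 1 gene upregulated and 7 downregulated under upper-quartile factors, and 2 upregulated and 3 downregulated with library size only. With the share of reads outside genes in the model, 0 enzyme genes were called, as were 0 at an unadjusted p-value under 0.05. That fit called 1 of all genes, with 581 at an unadjusted p-value under 0.05. As the share separated the genotypes, the fit cannot tell the share and the genotype apart. Without that covariate, DESeq2 called 4 enzyme genes upregulated and 8 downregulated and edgeR's exact test 4 and 9. Over all genes, DESeq2 called 4018 and the exact test 3966. In the covariate fit the log2 fold changes of *ak1*, *ampd3b* and *nt5c1ba* were 0.11, 0.72 and −0.04, opposite in sign to those without it. Those of *entpd4*, *nt5dc1*, *entpd1* and *entpd3* kept their sign there, at 0.80, −0.87, −0.60 and −0.69, and those of *ada* and *nt5c1aa* were −0.53 and 0.16. *ada*, *ak1*, *ampd3b*, *entpd1*, *nt5c1aa* and *nt5c1ba* were called both without *panx1a*-/- replicate 2 and without TL replicate 1, *entpd3* and *nt5dc1* without *panx1a*-/- replicate 2 alone, and *entpd4* in the one without TL replicate 1 alone.

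**Figure D2:**
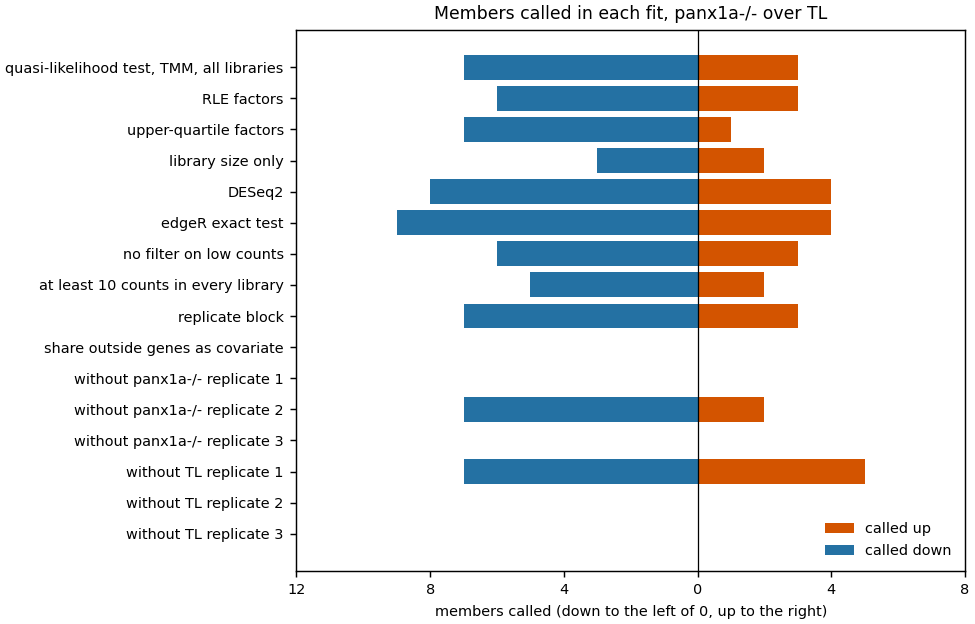
Number of enzyme genes called at an adjusted p-value below 0.05 (x axis, downregulated to the left of 0 and upregulated to the right) in each fit of *panx1a*-/- over TL (y axis). With all 6 libraries, TMM factors and edgeR's quasi-likelihood test, 7 genes were downregulated and 3 upregulated, and the fits without *panx1a*-/- replicate 1 or 3 or without TL replicate 2 or 3, and the fit with the share of reads outside genes as a covariate, called none.

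The first step outside the cell is carried out by nucleoside triphosphate diphosphohydrolases (NTPDases). *entpd1* encodes the enzyme also known as CD39, which takes ATP and ADP to AMP. It was measured at 7.48, 10.04 and 6.74 CPM (reads relative to the total on genes, with TMM-normalized library sizes) in *panx1a*-/- libraries and at 14.8, 13.2 and 14.3 CPM in TL libraries. Every *panx1a*-/- library lay below every TL library, and the TL values were close to each other. *entpd1* fell by 0.80 on the log2 scale (SE 0.20, quasi-likelihood test in edgeR with adjusted p = 0.0358). Without TL replicate 1 the adjusted p was 0.0407, and it was 0.122 when libraries were scaled by size alone.

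*entpd3*, whose product also hydrolyzes both ATP and ADP, had 4.06, 9.19 and 4.10 CPM in *panx1a*-/- libraries and 13.4, 12.0 and 11.6 CPM in TL libraries. The *panx1a*-/- libraries 1 and 3 were at a similar low level and replicate 2 stood nearer to the TL libraries. The gene fell by 1.08 on the log2 scale (SE 0.33, quasi-likelihood test in edgeR with adjusted p = 0.0498), just inside the threshold, and was not called with RLE factors or with library size only. DESeq2 gave an adjusted p of 0.0172. *entpd2a.1*, an NTPDase that prefers ATP over ADP, was at 0.814 ± 0.019 CPM in *panx1a*-/- larvae and 1.32 ± 0.35 CPM in TL larvae (SD, n = 3 each), with no overlap but an adjusted p of 0.146 (edgeR's quasi-likelihood test). *entpd8*, the liver NTPDase of mammals, was the only member of this class above 0, at 5.52 ± 1.28 CPM in *panx1a*-/- larvae against 4.14 ± 1.19 CPM in TL larvae (SD, n = 3 each), with overlapping values and a 95% interval of the log2 fold change from −0.25 to 1.08.

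Leukocytes are among the cells known to carry CD39 in mammals. Of 6 tested leukocyte markers 1 was downregulated, or 16.7%, against 11.8% of all genes. The log2 fold change was below 0 for 5 and above 0 for 1, with a median of −0.86. The markers summed to between 17.0 and 29.8 CPM in *panx1a*-/- libraries, against 30.7 to 38.5 CPM in TL libraries. Of the list, *lyz* had 0 counts in every library. The part of these cells in the *entpd1* result was not tested.

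Ecto-5′-nucleotidase, encoded by *nt5e* and also known as CD73, makes adenosine from extracellular AMP. It was at 2.96, 4.30 and 4.59 CPM in *panx1a*-/- libraries and at 3.50, 10.9 and 6.35 CPM in TL libraries. TL replicate 1 lay within the range of the *panx1a*-/- libraries, while the other TL libraries lay above it. The log2 fold change was −0.81 with a 95% interval from −1.74 to 0.13, and the gene was not called (quasi-likelihood test in edgeR, adjusted p = 0.158). Without TL replicate 1 the log2 fold change was −1.12 and the gene was called (adjusted p = 0.0326 from the same test), while without TL replicate 2 the log2 fold change was −0.33 (adjusted p = 0.516), so that single TL libraries decided both size and call.

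None of the 5 tested ectonucleotide pyrophosphatase/phosphodiesterases (ENPPs) was called by edgeR's quasi-likelihood test, and none had an unadjusted p-value below 0.05. *enpp1*, whose product releases pyrophosphate from ATP and restrains mineralization, had 12.3, 16.1 and 8.06 CPM in *panx1a*-/- libraries and 14.4, 17.1 and 14.1 CPM in TL libraries, and the genotypes overlapped. The widest difference of the group was that of *enpp5*, at 2.38 ± 0.81 CPM in *panx1a*-/- larvae and 4.59 ± 2.18 CPM in TL larvae (SD, n = 3 each). Its 95% interval of the log2 fold change ran from −1.91 to 0.0013. The lipid-directed enzymes *enpp2* (autotaxin, which makes lysophosphatidic acid), *enpp6* (a choline phosphodiesterase of oligodendrocytes in mammals) and *enpp7.1* (intestinal sphingomyelinase) had log2 fold changes of 0.14, −0.32 and 0.06. *enpp7.1* varied most between libraries of the same genotype, from 14.9 to 33.7 CPM in *panx1a*-/- and from 11.9 to 32.3 CPM in TL libraries. *enpp4* had 4, 3 and 4 counts in *panx1a*-/- libraries against 9, 5 and 10 in TL libraries, and *enpp7.2* had 1, 1 and 1 in *panx1a*-/- against 1, 2 and 0 in TL libraries. Both were too low to be tested, and *enpp7.2* did not exceed 3 counts in any library.

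Adenosine is removed by deamination or by phosphorylation. *ada*, which converts adenosine to inosine, had 43.9, 65.5 and 66.1 CPM in *panx1a*-/- libraries and 92.9, 245 and 157 CPM in TL libraries. The genotypes did not overlap, although TL replicate 1 was much nearer to the *panx1a*-/- libraries than TL replicates 2 and 3 were. *ada* fell by 1.496 on the log2 scale (SE 0.35, quasi-likelihood test in edgeR with adjusted p = 0.0336), and the change stayed between −1.61 and −1.20 under the other scalings, each time with a call. It was called in 2 of the 6 fits with a library left out, with adjusted p-values from 0.00759 to 0.125.

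Adenosine kinase, which phosphorylates adenosine to AMP, is encoded by 2 paralogs, and neither was called. *adka* was at 24.4 ± 0.9 CPM in *panx1a*-/- larvae and 29.0 ± 4.2 CPM in TL larvae, and *adkb* at 47.0 ± 3.0 CPM in *panx1a*-/- and 41.6 ± 5.6 CPM in TL larvae (SD, n = 3 each). The 95% intervals of the log2 fold change, from −0.61 to 0.11 for *adka* and from −0.18 to 0.54 for *adkb*, included 0. The log2 ratio of *adka* to *adkb* averaged −0.93 in *panx1a*-/- and −0.52 in TL libraries, a difference of −0.42 with overlapping libraries (two-sided exact permutation test over 3 libraries each, p = 0.2, adjusted over 3 paralog pairs 0.3). It was −0.63 without TL replicate 1 and −0.23 without TL replicate 2. *adal*, a deaminase of modified AMP that current annotation calls *mapda*, had 2.78, 2.92 and 2.43 CPM in *panx1a*-/- libraries and 1.91, 1.21 and 1.39 CPM in TL libraries. All *panx1a*-/- values were the higher ones, but the adjusted p was 0.0609 in edgeR's quasi-likelihood test and 0.0467 in DESeq2.

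**Figure D3:**
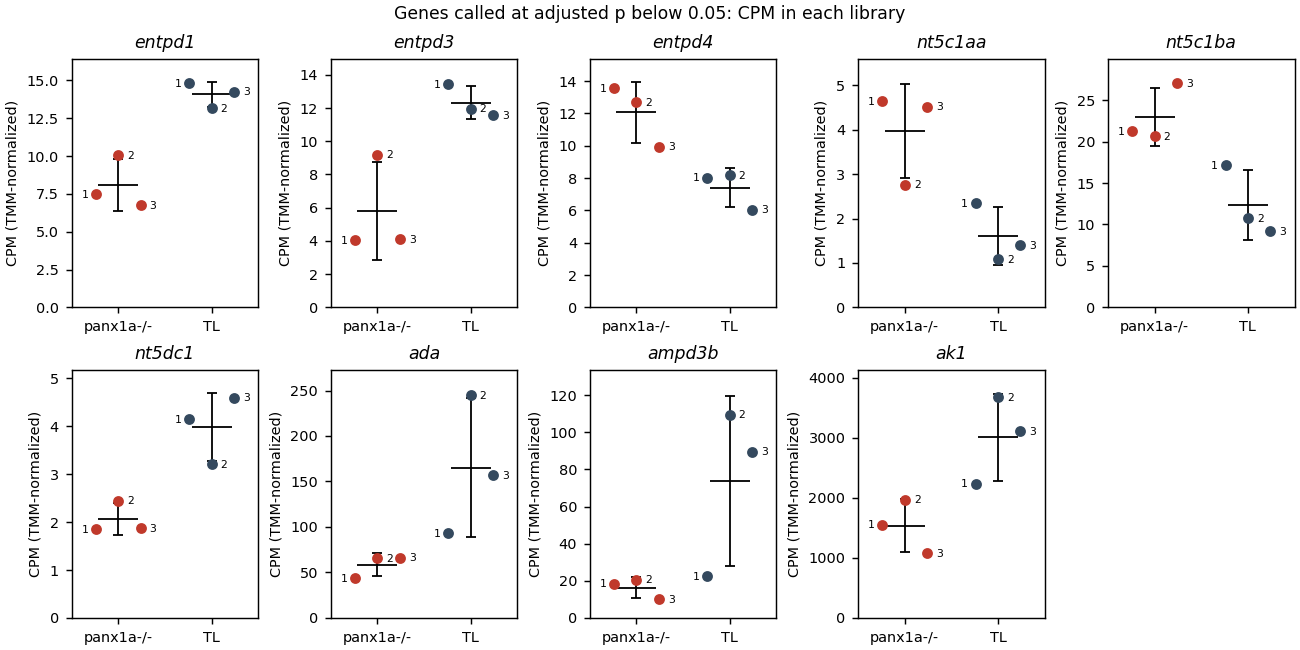
TMM-normalized CPM (y axes, each starting at 0) of 9 called genes in the 3 *panx1a*-/- libraries (red, left) and the 3 TL libraries (dark, right); digits are replicate numbers, and the horizontal line and bars give the mean and SD. For *ada*, *ampd3b* and *ak1*, TL replicate 1 was the lowest of the TL libraries, and for *entpd3*, *panx1a*-/- replicate 2 was the highest of the *panx1a*-/- libraries.

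The 5′-nucleotidases inside the cell dephosphorylate nucleoside monophosphates, and 2 of the 8 in this class, or 25%, were upregulated, against 9.88% of all genes. Products of the nt5c1 genes act on AMP in the cytosol of mammals. *nt5c1aa* had 4.64, 2.76 and 4.52 CPM in *panx1a*-/- libraries and 2.35, 1.09 and 1.39 CPM in TL libraries. *panx1a*-/- replicate 2 and TL replicate 1 were the closest pair, and the groups did not overlap. It rose by 1.29 on the log2 scale, or 2.45-fold (SE 0.36, quasi-likelihood test in edgeR with adjusted p = 0.0432). It kept its call under each of the 3 other scalings and lost it in 4 of the 6 fits with a library left out and in the covariate fit.

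*nt5c1ba* had 21.2, 20.7 and 27.1 CPM in *panx1a*-/- libraries and 17.2, 10.8 and 9.19 CPM in TL libraries. It was higher by 0.89 on the log2 scale (SE 0.25, quasi-likelihood test in edgeR with adjusted p = 0.0446), and the call was lost with upper-quartile factors or library size only (highest adjusted p = 0.0534). Of 7 tested neuronal markers 4 were upregulated, or 57.1%, against 9.88% of all genes, and 1 had a log2 fold change below 0. All 6 tested photoreceptor markers were upregulated too, while 7 of 8 tested skeletal muscle markers had a log2 fold change below 0. The neuronal list summed to between 4635 and 6858 CPM in *panx1a*-/- libraries and between 2008 and 4180 CPM in TL libraries. No neuronal marker of the list that has a row was at 0. The part of neurons, photoreceptors or muscle in these results was not tested.

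*nt5dc1*, of a family related to the 5′-nucleotidases by sequence, was at 1.86, 2.44 and 1.88 CPM in *panx1a*-/- libraries and at 4.15, 3.20 and 4.59 CPM in TL libraries. It fell by 0.95 on the log2 scale (SE 0.26, quasi-likelihood test in edgeR with adjusted p = 0.0418) on counts no higher than 46 in *panx1a*-/- libraries, and was not called when libraries were scaled by size alone (adjusted p = 0.12). In RefSeq's annotation of a later assembly this gene overlaps the collagen gene *col10a1b*, which has no row in the counts. The strand setting of the counting is not given either, so the value of *nt5dc1* is uncertain. The remaining genes of the class were not called. The IMP- and GMP-directed *nt5c2a* and *nt5c2b* had log2 fold changes of 0.37 and −0.43. Their log2 ratio was 0.58, 0.11 and 1.52 in *panx1a*-/- libraries against 0.10, −0.54 and −0.02 in TL libraries. Each *panx1a*-/- value was above each TL value (two-sided exact permutation test over 3 libraries each, p = 0.1, adjusted over 3 pairs 0.3), and the difference between the mean ratios was 0.89, or 0.50 without *panx1a*-/- replicate 3. *nt5c2l1*, the pyrimidine nucleotidase gene *nt5c3a* and *nt5dc2* had log2 fold changes of −0.30, 0.07 and 0.27.

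Of the NTPDases in the Golgi and other organelles, *entpd4*, a hydrolase of UDP and other diphosphates, was upregulated. It had 13.6, 12.7 and 9.94 CPM in *panx1a*-/- libraries and 8.03, 8.16 and 6.04 CPM in TL libraries. The log2 fold change was 0.71 (SE 0.21, quasi-likelihood test in edgeR with adjusted p = 0.0485), without overlap between the genotypes. The call was lost with upper-quartile factors (adjusted p = 0.0704 in edgeR) and where each library had to hold at least 10 counts (adjusted p = 0.0538 in edgeR). *entpd6* was not called, at 19.0 ± 0.3 CPM in *panx1a*-/- larvae and 20.1 ± 1.1 CPM in TL larvae (SD, n = 3 each; 95% interval of the log2 fold change from −0.41 to 0.24).

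AMP deaminases convert AMP to IMP, which diverts it from dephosphorylation to adenosine. *ampd3b*, orthologous to the erythrocyte form of mammals, had the largest log2 fold change in size of the 35 genes. It had 18.6, 20.6 and 10.1 CPM in *panx1a*-/- libraries and 22.5, 110 and 89.6 CPM in TL libraries. All *panx1a*-/- values lay below TL replicate 1, *panx1a*-/- replicate 3 the farthest, and TL replicates 2 and 3 stood far above the other 4 libraries. *ampd3b* fell by 2.168 on the log2 scale (SE 0.56, quasi-likelihood test in edgeR with adjusted p = 0.0391), a call that was lost, with a log2 fold change of 0.72, when the share of reads outside genes entered the model.

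*ampd1*, the muscle form, varied in the same manner among TL libraries, with 512, 354 and 162 CPM in *panx1a*-/- libraries and 466, 1094 and 963 CPM in TL libraries. *panx1a*-/- replicate 1 exceeded TL replicate 1, so the genotypes overlapped, and the log2 fold change of −1.30 was not called (SE 0.47, quasi-likelihood test in edgeR with adjusted p = 0.0752). It was called by DESeq2 (adjusted p = 0.0202), by edgeR's exact test (adjusted p = 0.0279) and without TL replicate 1 (quasi-likelihood test in edgeR, adjusted p = 0.0352).

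Adenylate kinases interconvert ATP, ADP and AMP. The cytosolic *ak1*, abundant in muscle, gave the most reads of the 37 genes. It had 1555, 1968 and 1082 CPM in *panx1a*-/- libraries and 2237, 3672 and 3112 CPM in TL libraries. The groups did not overlap, and *panx1a*-/- replicate 3 was the lowest library. *ak1* fell by 0.97 on the log2 scale (SE 0.29, quasi-likelihood test in edgeR with adjusted p = 0.0496), at the edge of the threshold, and had an adjusted p of 0.0633 with library size only.

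Skeletal muscle markers were set beside *ak1* and *ampd1*. Of 8 tested markers 2 were downregulated, or 25%, against 11.8% of all genes. The log2 fold change was below 0 for 7 and above 0 for 1. The list summed to 44182, 35265 and 23907 CPM in *panx1a*-/- libraries, against 42025, 130845 and 87933 CPM in TL libraries. TL replicate 1 was the lowest TL library in this sum as well, and it fell within the range of the *panx1a*-/- libraries. For *ak1*, TL replicate 1 lay above all *panx1a*-/- libraries. None of the muscle markers was at 0, and their part in the *ak1*, *ampd1* and *ampd3b* values was not tested.

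The mitochondrial matrix kinases *ak3* and *ak4* were at 28.0 ± 1.3 and 61.2 ± 4.5 CPM in *panx1a*-/- larvae and at 26.5 ± 2.6 and 68.8 ± 3.4 CPM in TL larvae (SD, n = 3 each). Their 95% intervals of the log2 fold change ran from −0.25 to 0.42 for *ak3* and from −0.51 to 0.17 for *ak4*. The brain form *ak5* and *ak5l* had log2 fold changes of 0.15 and −0.04.

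The kinases found in motile cilia and flagella of vertebrates were not called by edgeR's quasi-likelihood test. *ak7a* had 10.03, 8.71 and 5.77 CPM in *panx1a*-/- libraries and 16.6, 17.3 and 9.40 CPM in TL libraries, a log2 fold change of −0.81 (quasi-likelihood test in edgeR, adjusted p = 0.0749). edgeR's exact test called *ak7a* (adjusted p = 0.0474). *ak8* was at 1.22 ± 0.43 CPM in *panx1a*-/- larvae and 2.19 ± 0.20 CPM in TL larvae (SD, n = 3 each) without overlap, and *ak7b* had a log2 fold change of 0.00. The log2 ratio of *ak7a* to *ak7b* differed by −0.75 between the genotypes (two-sided exact permutation test over 3 libraries each, p = 0.3, adjusted over 3 pairs 0.3). Of 7 tested markers of motile cilia, 1 was upregulated by edgeR's quasi-likelihood test, or 14.3%, against 9.88% of all genes, and none downregulated. The log2 fold change was above 0 for 3 of them and below 0 for 4. The list summed to 57.5 to 59.0 CPM in *panx1a*-/- libraries and 32.9 to 44.4 CPM in TL libraries. The part of ciliated cells in these values was not tested.

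**Figure D4:**
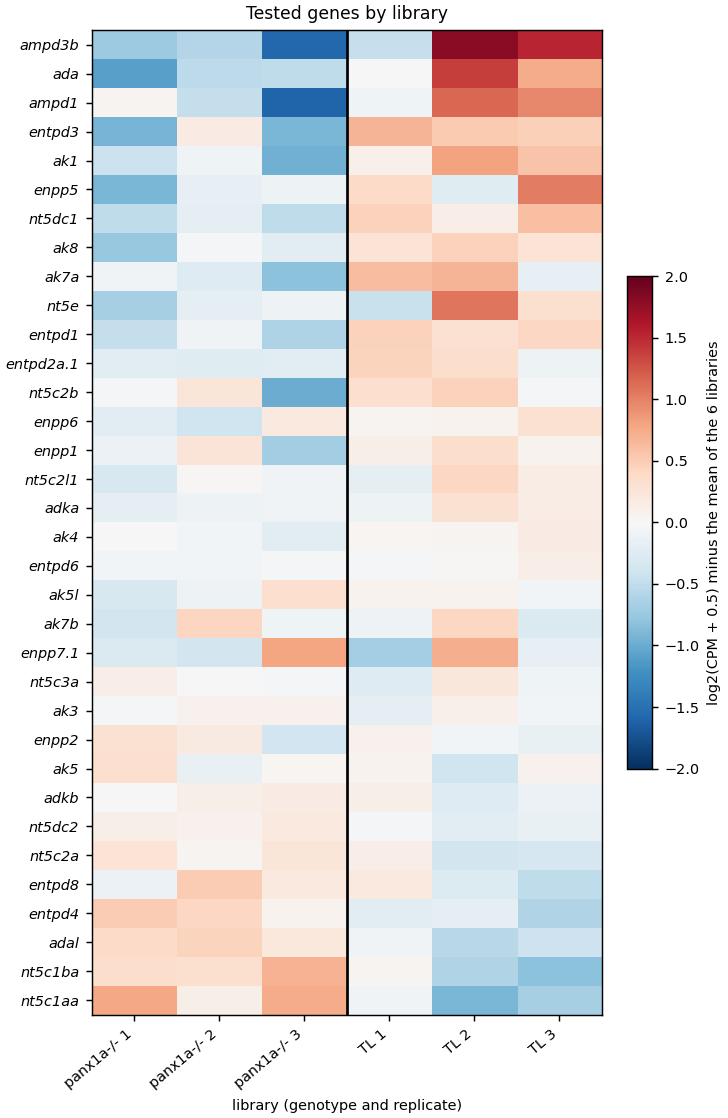
The same 34 tested enzyme genes (rows, ordered by log2 fold change) in each library (columns, *panx1a*-/- to the left of the black line and TL to the right), coloured by log2(CPM + 0.5) minus the mean of the 6 libraries. TL replicates 2 and 3 are highest for *ampd3b* (110 and 89.6 CPM), *ada* and *ampd1*, and *panx1a*-/- replicate 3 is lowest for *ampd3b*, *ampd1* and *ak1*.

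Other genes of purine handling were taken from a list by role. Of 44 tested, 7 were upregulated and 7 downregulated, or 15.9% each, against 9.88% and 11.8% of all genes, with a median log2 fold change of −0.24. Among them, *slc29a1a*, an equilibrative nucleoside transporter that carries adenosine across the membrane, was at 1.25 ± 0.20 CPM in *panx1a*-/- larvae and 4.33 ± 1.75 CPM in TL larvae (SD, n = 3 each; log2 fold change −1.78, quasi-likelihood test in edgeR, adjusted p = 0.0279). The related *slc29a4* lay higher in *panx1a*-/- larvae, at 20.01 ± 2.88 CPM, against 13.05 ± 4.19 CPM in TL larvae (SD, n = 3 each). Its log2 fold change of 0.62 was not called (quasi-likelihood test in edgeR, adjusted p = 0.0987). *ahcy*, which releases adenosine from S-adenosylhomocysteine, fell to 172 ± 12 CPM in *panx1a*-/- larvae, against 455 ± 171 CPM in TL larvae (SD, n = 3 each; adjusted p = 0.0308 from the same test in edgeR). The AMP-activated kinase gene *prkaa1* fell by 1.09 on the log2 scale. *cant1b*, a nucleotidase of the secretory pathway, fell by 1.16, while *cant1a* was not called, at −0.23. None of the called genes of the list was called by edgeR's quasi-likelihood test without *panx1a*-/- replicate 1, *panx1a*-/- replicate 3 or TL replicate 3 or in the covariate fit, where *ahcy* and *cant1b* had log2 fold changes of −0.30 and −0.18. Without TL replicate 2, *slc29a1a* and *ppat* alone among them were called.

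In purine synthesis, some genes were called and others were not. *ppat*, which encodes the committing step of purine synthesis, had 10.3, 12.1 and 10.3 CPM in *panx1a*-/- libraries and 30.0, 33.1 and 22.8 CPM in TL libraries (log2 fold change of −1.39, SE 0.19, quasi-likelihood test in edgeR with adjusted p = 0.0221). *atic*, which completes IMP, fell by 1.69 on the log2 scale. *gart*, *paics* and *pfas*, which act between those steps, had log2 fold changes of −0.09, −0.08 and −0.12 and were not called. *adsl*, which also acts between those steps, had a log2 fold change of −0.83 and was not called either (quasi-likelihood test in edgeR, adjusted p = 0.111). The IMP dehydrogenase genes *impdh1a* and *impdh2* rose by 1.095 and 0.76 on the log2 scale, while *impdh1b* was not called, at −0.29. In salvage, *aprt*, which recovers adenine, fell by 1.01. *hprt1l*, *pnp4a* (a nucleoside phosphorylase of iridophores) and the mitochondrial deoxyguanosine kinase gene *dguok* rose by 0.89, 0.97 and 0.76. The related *hprt1*, *pnp4b*, *pnp5a*, *pnp5b* and *pnp6* were not called, with log2 fold changes of 0.08, −0.73, −0.59, 0.20 and 0.50. The nucleoside diphosphate kinase genes *nme2a* and *nme3* rose by 0.80 and 0.65, both at the edge of the threshold (quasi-likelihood test in edgeR, adjusted p = 0.04997 and 0.04998). The related *nme2b.1*, *nme2b.2*, *nme4* and *nme6* were not called, with log2 fold changes of −0.24, −0.85, −0.34 and 0.12. Of these, *nme2b.2* averaged 1203 CPM in *panx1a*-/- larvae and 2171 CPM in TL larvae. With upper-quartile factors 4 of the list were upregulated.

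The adenosine receptors that have a row, where the product of the extracellular route acts, were low. *adora1a* has no row, so it could not be read. *adora1b* was at 1.12 ± 0.37 CPM in *panx1a*-/- larvae and 2.03 ± 0.85 CPM in TL larvae, and *adora2b* at 1.28 ± 0.36 CPM in *panx1a*-/- and 1.29 ± 0.36 CPM in TL larvae (SD, n = 3 each), and neither was called by edgeR's quasi-likelihood test. *adora2ab* had 1, 1 and 1 counts in *panx1a*-/- libraries and 3, 2 and 3 in TL libraries, too low to be tested. *adora2aa* had 0 counts in every library, which allows up to 0.209 CPM at the depth of the shallowest library.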

How the data were processed

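Whole-larva RNA was made into directional libraries by the authors and sequenced as read pairs. Per the submitters' processing notes, bcl2fastq 2.17, FastQC 0.11.2, Trim Galore 0.4.4, TopHat2 2.0.11 and HTSeq 0.6.1p2 were used with build danRer11. The annotation and the strand setting are not given in the sources used here. The deposited values were raw read counts per gene as the authors made them, with 15336 genes and 5 rows of reads assigned to no gene, which were left out of library sizes and tests. In RefSeq's annotation of a later assembly, 12 of the 37 enzyme genes overlap another gene. Among them are *adka*, *ak7a*, *ak7b* and *nt5c2b*, which enter the paralog ratios. For *enpp4*, *entpd6* and *nt5c2l1*, 3 of the 12, an overlapping gene has a row in the counts. Without a strand setting, reads of overlapping genes are uncertain. Values of near-identical paralogs are uncertain because reads without a unique alignment were assigned to no gene, 3948956 to 8700706 per library.

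Genotypes came from the labels. Counts were tested with edgeR 4.0.16 in R 4.3.3 (TMM factors, its default filter on low counts, robust quasi-likelihood test, genotype only), with Benjamini-Hochberg adjustment over the 12797 genes tested and a threshold of 0.05. Standard errors and 95% intervals came from the same fit. Single values were compared by two-sided exact permutation tests (scipy 1.17.1), and paralog ratios used log2(CPM + 0.5). Figures were drawn with matplotlib 3.10.9. The scripts were tested on simulated data. The floor was 3 counts per library, or 0.155 to 0.209 CPM, and covers counting error only. Alternatives were other scalings, DESeq2 1.42.0, edgeR's exact test, no filter, at least 10 counts in every library, a replicate block, the share of reads outside genes as a covariate, and each library left out.

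Enzymes, marker lists and other purine genes were chosen with earlier results of these data known. Named were all called genes, those at defining steps, the 3 with the most reads, the 5 largest uncalled changes and the genes below the filter, and further enzymes were named to complete their classes, after their values were seen. The result of 1 called enzyme gene is not reported here, although the gene stays in all counts and medians. Of the 37 enzymes, 36 matched RefSeq symbols of assembly GRCz12tu and 1 a synonym.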

Additional observations from a re-analysis of the deposited data

Results flagged for a closer look

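The share of uniquely aligned reads matched to no gene feature, a measure outside the gene counts, was 48.4% in the lowest *panx1a*-/- library. It was 42.9% in the highest TL library. Over 3 libraries each, the means differed by 18.5 percentage points (p = 0.1 in a two-sided exact permutation test, which cannot go lower here). The share entered the enzyme results only as a covariate in a single fit. As it separated the genotypes, that fit cannot tell the share and the genotype apart.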

How the results depend on the processing

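Over all genes, DESeq2 called 1961 upregulated, library size alone 607 downregulated, and the share of reads outside genes as a covariate 0 upregulated and 1 downregulated. Leaving out 1 library gave 1 to 2392 upregulated and 1 to 2316 downregulated. Of the enzymes, upper-quartile factors called 1 upregulated, library size alone 3 downregulated, the covariate 0 and 0, and leaving out 1 library 0 to 5 upregulated and 0 to 7 downregulated. Of the other purine genes, upper-quartile factors called 4 upregulated, the covariate 0 and 0, and leaving out 1 library 0 to 8 upregulated and 0 to 14 downregulated. *panx1a* had a log2 fold change of −2.38 with the covariate (quasi-likelihood test in edgeR, adjusted p = 0.574), and −2.90 to −2.62 with 1 library left out, where it was not called without *panx1a*-/- replicate 3 (adjusted p = 0.0649) or TL replicate 3 (adjusted p = 0.0637). With the covariate the log2 fold changes turned to 0.035 for *adka*, −0.16 for *adkb*, 0.11 for *ak1*, 0.64 for *ampd1*, 0.72 for *ampd3b*, 0.34 for *enpp1*, −0.039 for *nt5c1ba* and 0.31 for *nt5e*, and that of *enpp2* ran from −0.030 (without *panx1a*-/- replicate 1, the library that turned it) to 0.36 with 1 library left out. The cause was not tested. With 3 libraries a group, permutation tests cannot go below 0.1.

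Same-numbered libraries deviated together with correlations of 0.117, 0.301 and 0.0780, not all above 0.1, so the numbers were not taken as pairs. Differently numbered libraries had correlations from −0.214 to 0.139, with a mean of −0.082 against 0.165. Whether the numbers pair the libraries was not tested. A replicate block called 3 enzymes upregulated and 7 downregulated, with *ampd3b* lost (log2 fold change −1.97, quasi-likelihood test in edgeR, adjusted p = 0.0562) and *ak7a* gained, and 1743 and 2139 of all genes.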
